A study of Mus musculus with 8 samples.

Results

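The measurements below concern 10 genes of the Eph receptor and ephrin family: the EphA receptors Epha4, Epha5, Epha6 and Epha7, the EphB receptors Ephb1, Ephb2 and Ephb6, and the ephrins Efna5, Efnb2 and Efnb3. They were chosen by name, 10 of 38031 genes with a transcript in the count table, for each gene the annotated transcript with the lowest Ensembl number. The samples were primary motor cortex (M1) of male Swiss Webster mice aged P49–P53. At P21–P25 the mice had been injected in M1 with lentivirus carrying either a short hairpin RNA against Fezf2 (Fezf2 shRNA, n = 4) or a non-silencing shRNA (control, n = 4). In both groups the rat Synapsin I promoter, which is active in neurons, drove mCherry together with the hairpin, so the controls carried virus and reporter too. The dissected tissue was picked by mCherry and held all layers, the meninges and untransduced cells. FEZF2 is a zinc finger transcription factor that specifies subcerebral projection neurons during development.

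Eph receptors are receptor tyrosine kinases, and their ephrin ligands are also bound to the cell surface, so that signalling needs contact between cells. EphA receptors mainly bind the GPI-anchored ephrin-As and EphB receptors mainly bind the transmembrane ephrin-Bs, with EphA4 binding both classes. Binding sends a forward signal into the receptor cell, often seen as growth cone collapse, and a reverse signal into the ephrin cell. In the developing cortex and spinal cord these pairs guide corticospinal and callosal axons and set topographic maps, and in the mature brain they act at synapses and dendritic spines. Ephb1 belongs to the genes that FEZF2 acts on in the guidance of corticospinal axons.

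None of the 10 genes passed the threshold, set at an adjusted p of at most 0.05 and a log2 fold change of at least 0.2 in either direction, in edgeR's quasi-likelihood test, against 2.09% of the 9959 genes tested. By DESeq2, the tool to which the study applied these limits, 3 of the 10 passed (Epha5, Epha6 and Efna5, with higher means), against 7.55% of all genes (7.37% with its shrinkage prior, by which the same 3 passed). All 10 were expressed above the filter. The mean was higher with Fezf2 shRNA for 8 of them and lower for Ephb6 and Efnb3, where 43.4% of all genes tested were higher. At an unadjusted p under 0.05 stood 4 of the 10, namely Epha5, Epha6 and Efna5 with higher means and Efnb3 with a lower mean, against 19.6% of all genes. In no member were the 2 groups of libraries apart, which was so for 11.8% of all genes (7.41% with every Fezf2 shRNA library above and 4.41% with every one below the controls). The median log2 fold change over the members was 0.08 and over all genes tested −0.03. In bulk tissue, fewer cells of a type and less RNA per cell cannot be told apart.

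Reads were counted from the first to the last base of each transcript, so introns enter the counts, and the members' intervals are long. They run from 6114 bp for Efnb3 to 951766 bp for Epha6, with a median of 168.4 kb against 28.5 kb over all genes tested. Across all genes the log2 fold change moved with this span, from a median of −0.12 under 10 kb to 0.29 over 300 kb. Calls by edgeR did so too, with 10 of 2154 genes under 10 kb past the threshold. They were 73 of 1297 at 100 to 300 kb and 90 of 407 over 300 kb. Each member is therefore given with its fold change as counted and with a gene-length offset. That correction takes away each library's own smooth trend with span over all genes, relative to the mean of the libraries.

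The targeted gene was examined first. Fezf2 (ENSMUSG00000021743, mm10 chr14:12342102-12345959) had normalized counts of 688, 767, 735 and 702 in the controls and 621, 583, 568 and 592 with Fezf2 shRNA. Every Fezf2 shRNA library lay below every control. The log2 fold change was −0.29 ± 0.08 (SE), with an adjusted p of 0.0824 in edgeR, so the direction matched the labels while the call was not made. With the gene-length offset it was −0.18 (adjusted p = 0.447). The library totals were alike, from 54684016 to 58003814 counts over 1 transcript per gene. Neuron and cortical layer markers were well above the filter, while 0 of 4 endothelial and 2 of 5 striatal projection neuron markers passed it.

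The hairpin was compared with the members' transcripts, to show which stretches of it they share. The sense strand of 19 bases is printed below for the target and for each member holding a run of at least 8 of its bases, with the longest shared run in capitals.
Fezf2: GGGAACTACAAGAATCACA
Ephb2: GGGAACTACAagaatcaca
Epha7: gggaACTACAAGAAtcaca
Epha4: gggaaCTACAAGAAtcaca
Epha5: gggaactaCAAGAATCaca
Efnb2: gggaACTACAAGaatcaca
The whole 19 bases were found in Fezf2 alone among the 9941 gene symbols searched. The longest runs in members were 10 bases, in Ephb2 and Epha7, and 5.51% of the genes searched held a run of 10 bases or more. Ephb1, Ephb6, Epha6, Efna5 and Efnb3 held no run of 8. On the opposite strand the longest run in a member was 10 bases, in Efnb3. The part of such matches in any result was not tested.

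**Figure D1:**
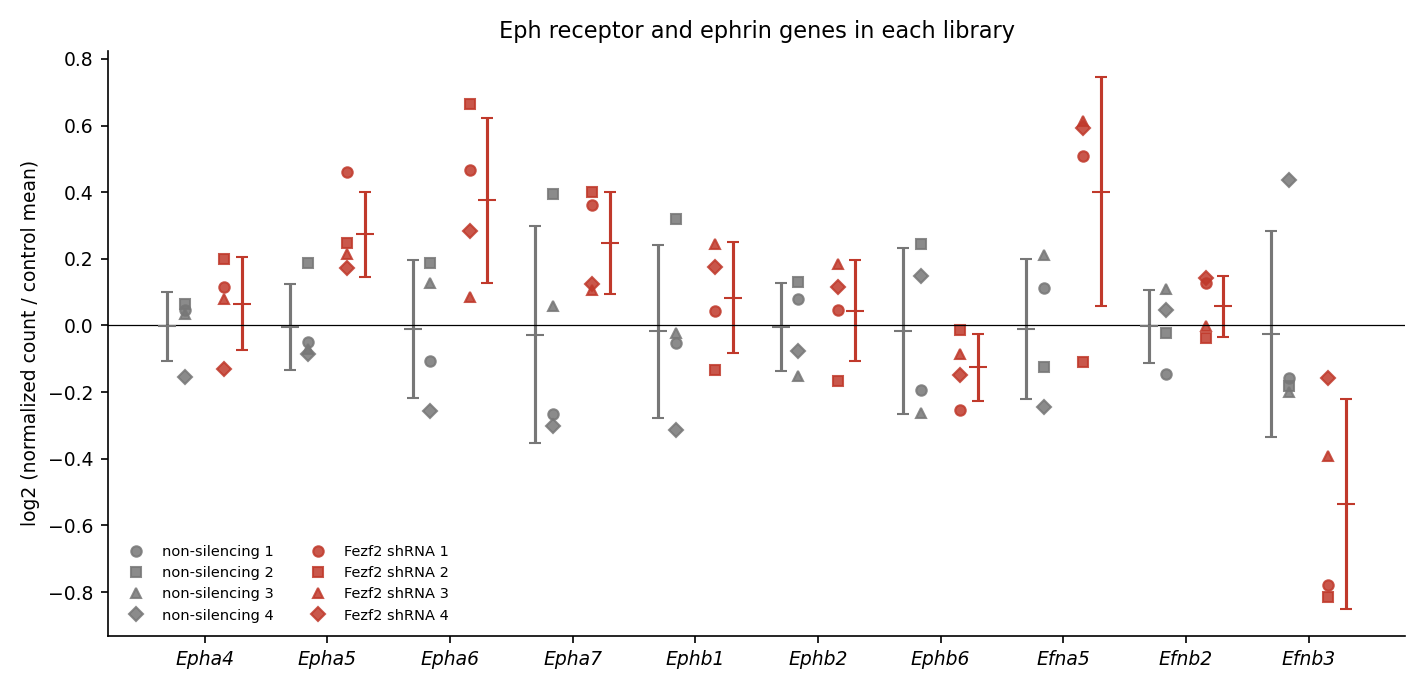
Log2 of each library's normalized count over the mean of the 4 controls, for the 10 genes. Grey marks are non-silencing shRNA and red marks Fezf2 shRNA libraries, the symbol gives the replicate, and the bars give mean ± SD of the 4 libraries. The red and grey marks overlap in every gene, and 3 of 4 Fezf2 shRNA libraries lie above all controls in Epha4, Epha5, Epha6 and Efna5.

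Among the EphA receptors, Epha4 is the most broadly binding and is known for keeping corticospinal axons from crossing the midline. It lies at chr1:77367185-77515088 on the minus strand. Its normalized counts were 13234, 13394, 13128 and 11499 in the controls and 13868, 14727, 13544 and 11698 with Fezf2 shRNA. Control 4 stood well below the other controls, and 3 of 4 Fezf2 shRNA libraries lay above all controls. Its log2 fold change of 0.07 ± 0.08 (SE, adjusted p = 0.664) changed sign with the length offset, to −0.07.

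Epha5 and Epha6, receptors for ephrin-A ligands, are among the longest members. Epha5 (chr5:84054761-84416921) had 4533, 5345, 4471 and 4428 normalized counts in the controls and 6460, 5571, 5447 and 5291 with Fezf2 shRNA. Only control 2 reached into the range of the Fezf2 shRNA libraries. The means were 5692 ± 524 against 4694 ± 436 (SD), a log2 fold change of 0.28 ± 0.08 (SE) with an unadjusted p of 0.00629 and an adjusted p of 0.105 in edgeR. DESeq2 put Epha5 past the threshold with an adjusted p of 0.0300, and so did edgeR without control 2 (0.35, adjusted p = 0.0339). With the length offset its log2 fold change was 0.02 ± 0.07. Among the 407 genes over 300 kb it stood at percentile 45.7 for fold change.

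Epha6 (chr16:59653483-60605248) is the longest of the 10. Its normalized counts were 3765, 4615, 4429 and 3392 in the controls and 5602, 6422, 4301 and 4932 with Fezf2 shRNA. Fezf2 shRNA library 3 lay within the control range and the other 3 lay above it. The log2 fold change was 0.39 ± 0.13 (SE, adjusted p = 0.134 in edgeR and 0.0340 in DESeq2). It was 0.04 ± 0.13 with the length offset, at percentile 76.4 of its span class.

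Epha7, a repellent receptor in topographic mapping, had the widest control spread of the EphA receptors as a share of the mean (an SD of 23.5%). Its interval is chr4:28813131-28967499. The controls held 3054, 4835, 3829 and 2984 normalized counts and the Fezf2 shRNA libraries 4720, 4847, 3958 and 4008. Control 2 was close to the highest Fezf2 shRNA library, and the other 3 controls lay below all of them. This gave a log2 fold change of 0.25 ± 0.14 (SE, adjusted p = 0.336), and of 0.11 with the offset. Without control 2 it was 0.41 (adjusted p = 0.0615), and without control 4 it was 0.17. Summed over the 4 EphA receptors, the levels were 22304 to 28189 in the controls and 25930 to 31567 with Fezf2 shRNA, and the ranges overlapped.

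Of the EphB receptors, Ephb1, at chr9:101922128-102354693, had 3792, 4902, 3869 and 3164 normalized counts in the controls and 4056, 3583, 4662 and 4442 with Fezf2 shRNA. The highest and the lowest library were both controls, 2 and 4. The means were 4185 ± 473 against 3932 ± 720 (SD), a log2 fold change of 0.09 ± 0.12 (SE) with an adjusted p of 0.711. Without control 4 it was 0.002 and without control 2 it was 0.21. For its length Ephb1 stood low: at percentile 9.83 among the genes over 300 kb, whose median was 0.29, and at −0.19 ± 0.10 with the length offset (unadjusted p = 0.0857, adjusted p = 0.547). Of its reads, 4.17% lay in the interval of Gm26846, a lincRNA on the opposite strand, and 0.972% in that of 9630041A04Rik.

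Ephb2, which with EphB1 shapes dendritic spines and clusters NMDA receptors, had 1731, 1792, 1473 and 1553 normalized counts in the controls and 1692, 1457, 1859 and 1775 with Fezf2 shRNA (chr4:136653608-136835956). The groups overlapped throughout. Between treatments the log2 fold change was 0.05 ± 0.09 (SE, adjusted p = 0.778) as counted and −0.12 with the length offset.

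Ephb6, whose kinase domain is without catalytic activity, has the shortest interval of the receptors, chr6:41605482-41620509. Its normalized counts were 4873, 6590, 4637 and 6169 in the controls and 4673, 5509, 5248 and 5024 with Fezf2 shRNA. Controls 2 and 4 were above every Fezf2 shRNA library, and the Fezf2 shRNA libraries were more alike, with an SD of 6.93% of the mean against 17.2%. The log2 fold change was −0.12 ± 0.11 (SE, adjusted p = 0.550), and −0.05 with the length offset.

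Ephrin-A5, the product of Efna5, is a GPI-anchored ligand known for graded expression in cortex and for repelling axons. Its gene lies at chr17:62604184-62881317. The controls held 7597, 6451, 8148 and 5938 normalized counts and the Fezf2 shRNA libraries 9997, 6520, 10758 and 10614. Fezf2 shRNA library 2 lay within the controls, and the other 3 were well above them. The means were 9472 ± 1995 against 7033 ± 1016 (SD), a log2 fold change of 0.43 ± 0.15 (SE) with an unadjusted p of 0.0178 and an adjusted p of 0.167 in edgeR. DESeq2 called it (adjusted p = 0.0457), and without Fezf2 shRNA library 2 edgeR called it at 0.57 (adjusted p = 0.0294). With the length offset it was 0.20 ± 0.13 (adjusted p = 0.658). Among the 1297 genes of 100 to 300 kb it stood at percentile 96.1.

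Efnb2, a transmembrane ligand of EphB receptors and of EphA4, also marks arterial endothelium. It had 1305, 1421, 1559 and 1491 normalized counts in the controls and 1577, 1406, 1442 and 1595 with Fezf2 shRNA (chr8:8617434-8661242). These differed by less than the spread within each group. Their log2 fold change was 0.06 ± 0.07 (SE, adjusted p = 0.683), and 0.05 with the offset.

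Efnb3, a transmembrane ligand present at the spinal midline and in myelin, was the shortest gene and had the lowest mean relative to controls (chr11:69554092-69560205). Its normalized counts were 738, 726, 717 and 1114 in the controls and 480, 468, 628 and 738 with Fezf2 shRNA. Control 4 stood far above the other controls, and Fezf2 shRNA library 4 reached the level of those others. The log2 fold change was −0.51 ± 0.18 (SE), with an unadjusted p of 0.0178 and an adjusted p of 0.167, and −0.39 ± 0.19 with the length offset. Without control 4 it was −0.33 (adjusted p = 0.328). Only 0.604% of the genes under 10 kb had a fold change as low.

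Oligodendrocyte markers shared the direction of Efnb3 between treatments, though not its order over single libraries. The 4 markers Mbp, Mog, Mag and Mobp had lower means with Fezf2 shRNA, with a median log2 fold change of −0.54, 2 at an unadjusted p under 0.05 and adjusted p from 0.128 to 0.470. None of them was at 0. Their summed level was 29229, 46240, 38128 and 58739 in controls 1 to 4 and 25657, 25534, 41944 and 41943 in Fezf2 shRNA libraries 1 to 4. Control 4 was the highest and Fezf2 shRNA library 2 the lowest for the markers and for Efnb3 alike. Control 1, however, had the lowest marker sum of the controls, with 738 normalized counts of Efnb3, above controls 2 and 3. Fezf2 shRNA library 3 had a marker sum above controls 1 and 3, with 628 counts of Efnb3, below every control. The part of oligodendrocyte content in the Efnb3 result was not tested.

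Per kilobase of interval, the order of the control levels was Ephb6 (6.75 CPM, counts scaled to equal library size, per kb), Efnb3 (2.46), Epha4 (1.58), Efnb2 (0.601), Efna5 (0.463), Epha7 (0.434), Epha5 (0.236), Ephb1 (0.166), Ephb2 (0.164) and Epha6 (0.0776). Introns enter this measure, so genes with a larger exonic share of the interval stand higher. Exons made up 52.1% of the interval of Efnb3 and 25.1% of that of Ephb6, against 0.478% for Epha6. Efna5 and Epha7 did not differ beyond their spread, nor did Ephb1 and Ephb2.

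**Figure D2:**
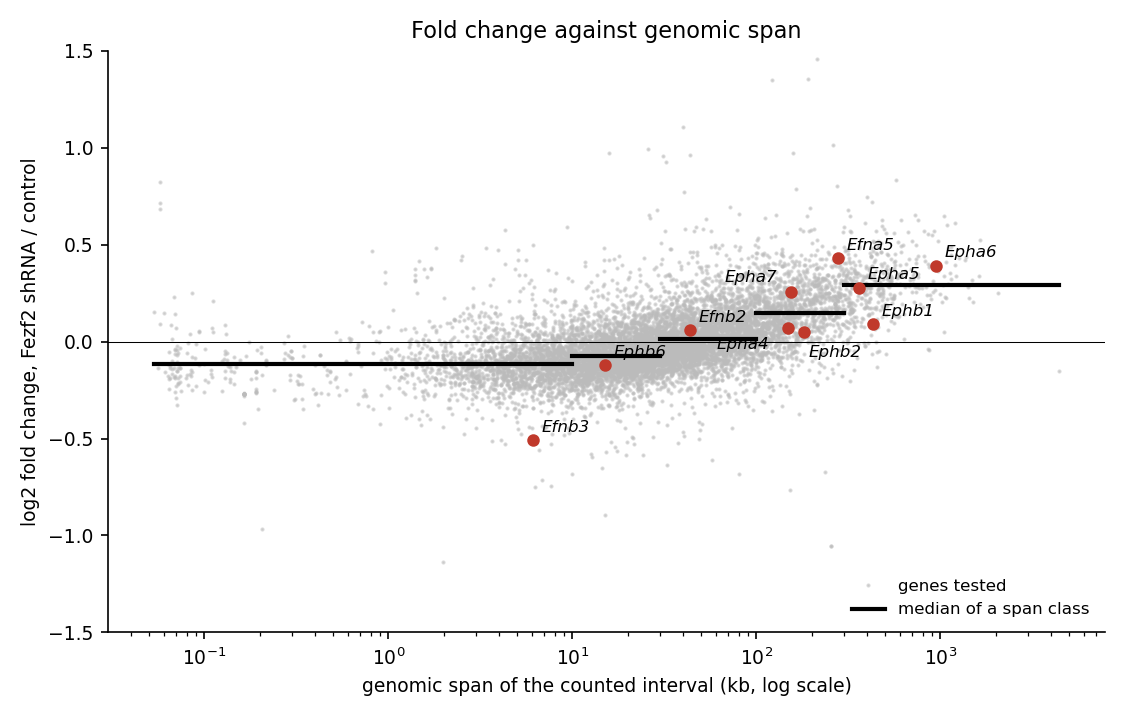
Log2 fold change (Fezf2 shRNA over control) of each gene tested against the genomic span of its interval in kb on a log scale. Grey dots are the 9959 genes (10 lie beyond the vertical limits), black lines the medians of 5 span classes and red dots the 10 named genes. The black lines climb from −0.12 to 0.29, Efna5 sits above the line of its class and Ephb1 and Efnb3 below theirs.

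The order of the members by fold change followed their span. Spearman's rank correlation of span with log2 fold change was 0.79 over the 10 members and 0.60 over all 9959 genes, as a description across genes that share the same 8 libraries. With the length offset the median over the members was −0.01, as it was over all genes. Of the members 0 passed, and none was at an unadjusted p under 0.05 in edgeR. Of all 9959 genes tested 2 passed with this offset, and 1078 were at an unadjusted p under 0.05. The offset turned the sign of Epha4, Ephb1 and Ephb2 to negative, and left Efna5 with the highest and Efnb3 with the lowest value of the 10.

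**Figure D3:**
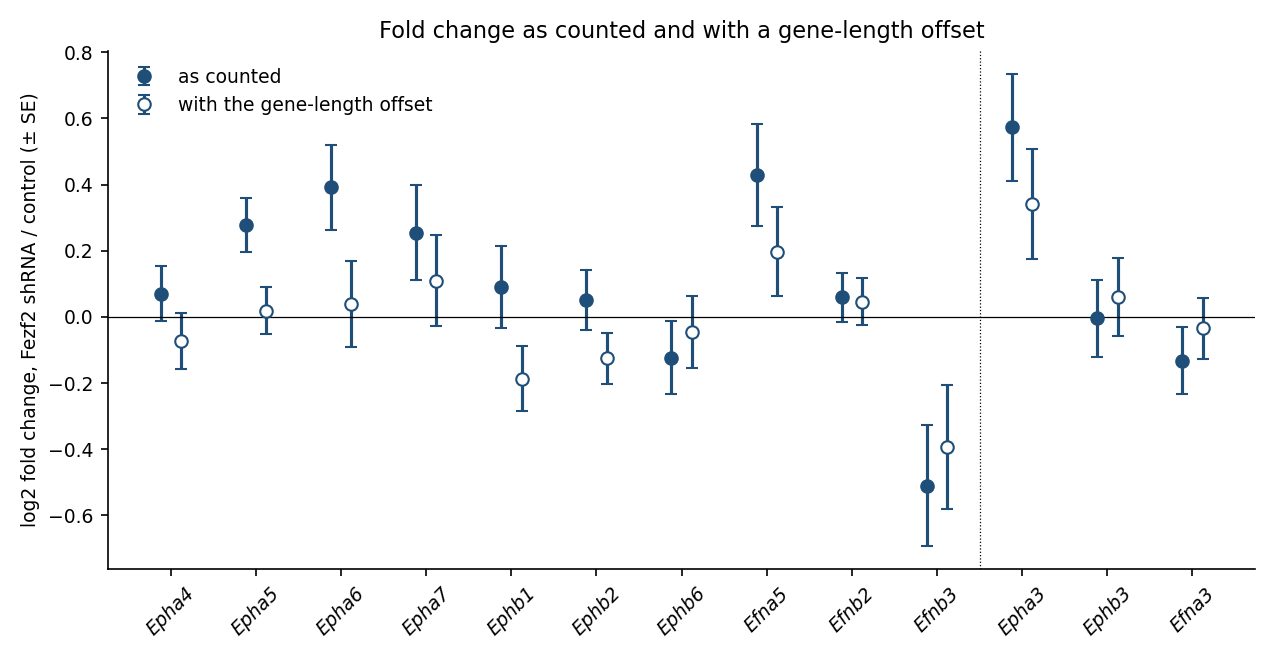
Log2 fold change ± SE of the 10 genes and, right of the dotted line, of the other 3 family genes tested. Filled circles are values as counted and open circles values with the gene-length offset, which lie nearer to 0 for Epha5, Epha6 and Efna5.

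Whether exons and introns moved alike could be seen in members with nested transcripts, since subtracting an inner from an outer interval leaves a stretch that is almost wholly exon or intron. No single annotated interval of a member was at least 80% exonic beside another at most 20% exonic. Parts were therefore built after the data had been seen, by subtraction or from single transcript intervals taken whole. The intronic parts of Efna5 and Ephb2 were such whole intervals. The exonic parts of Efna5, Epha5 and Ephb2 were untranslated exon only. Their intronic parts held some coding exon, 684 bp of 273826 bp in Efna5. Over all genes the median log2 fold change was −0.08 in 1953 exonic parts and 0.16 in 5109 intronic parts.

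For Efna5 the exonic part was 3308 bp of untranslated exon, 3135 bp of it at the 3′ end of the gene (chr17:62604184-62607318). Its normalized counts were 836, 749, 744 and 765 in the controls and 636, 505, 789 and 708 with Fezf2 shRNA. The intronic part of 273826 bp had 6761, 5701, 7404 and 5172 in the controls and 9361, 6016, 9968 and 9906 with Fezf2 shRNA. In the exonic part 3 of 4 Fezf2 shRNA libraries lay below all controls, while in the intronic part the same number lay above. The log2 fold changes were −0.23 ± 0.12 (adjusted p = 0.543) and 0.49 ± 0.16 (SE, adjusted p = 0.0614), neither past the threshold, which 0.102% of all exonic and 13.2% of all intronic parts passed. The exonic part held 11.0% of the reads of the gene's interval in the controls and 6.96% with Fezf2 shRNA.

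For Epha5 the exonic part was 553 bp of untranslated exon at the 5′ end (chr5:84416807-84417359). Its normalized counts were 143, 184, 155 and 115 in the controls and 135, 154, 106 and 115 with Fezf2 shRNA, a log2 fold change of −0.22 ± 0.19 (adjusted p = 0.702). The intronic part of 94358 bp (chr5:84236417-84330774) held 1000, 1128, 935 and 1060 in the controls and 1509, 1252, 1423 and 1354 with Fezf2 shRNA. All Fezf2 shRNA libraries lay above all controls there. It rose by 0.43 ± 0.09 on the log2 scale (SE, adjusted p = 0.0181 in edgeR), past the threshold. Of all 5109 intronic parts 13.2% passed too, 665 of these 672 upward. Read density in the controls was 270 normalized counts per kb in the exonic and 10.9 in the intronic part.

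Ephb2 had an exonic part of 7252 bp, nearly all of it 3′ untranslated (chr4:136647539-136654645), with 127.7 ± 23.9 normalized counts in the controls and 111.3 ± 14.1 under Fezf2 shRNA (SD). Its intronic part of 66583 bp had 390 ± 122 and 502 ± 116. The log2 fold changes were −0.20 ± 0.18 and 0.37 ± 0.21 (SE, adjusted p = 0.719 and 0.265). In both parts the groups overlapped. The exonic part also took in 145 bp at the 5′ end (chr4:136835844-136835988). Most of these bases lay inside the intronic part too (chr4:136769392-136835974), so reads there were counted in both.

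The balance within a library, the log2 ratio of intronic to exonic reads, does not depend on library size, and 3 members could be tested. For Efna5 it was 3.01, 2.93, 3.31 and 2.75 in the controls and 3.88, 3.57, 3.66 and 3.80 with Fezf2 shRNA. Every Fezf2 shRNA library was above every control. The difference was 0.73 (two-sided exact permutation test over libraries, p = 0.0286, the smallest that 4 against 4 can give). It was 0.68 without Fezf2 shRNA library 1 and 0.70 without library 4, each with an exact permutation p of 0.0571. Of the 1040 genes with both parts, 14.7% had the balance of every Fezf2 shRNA library above every control (14.9% apart in either direction), and the median difference over them was 0.22. For Epha5 the difference was 0.64 (exact permutation p = 0.0571), with 1 overlap between control 4 and Fezf2 shRNA library 2. For Ephb2, whose parts shared some bases at the 5′ end, it was 0.58 (exact permutation p = 0.143).

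**Figure D4:**
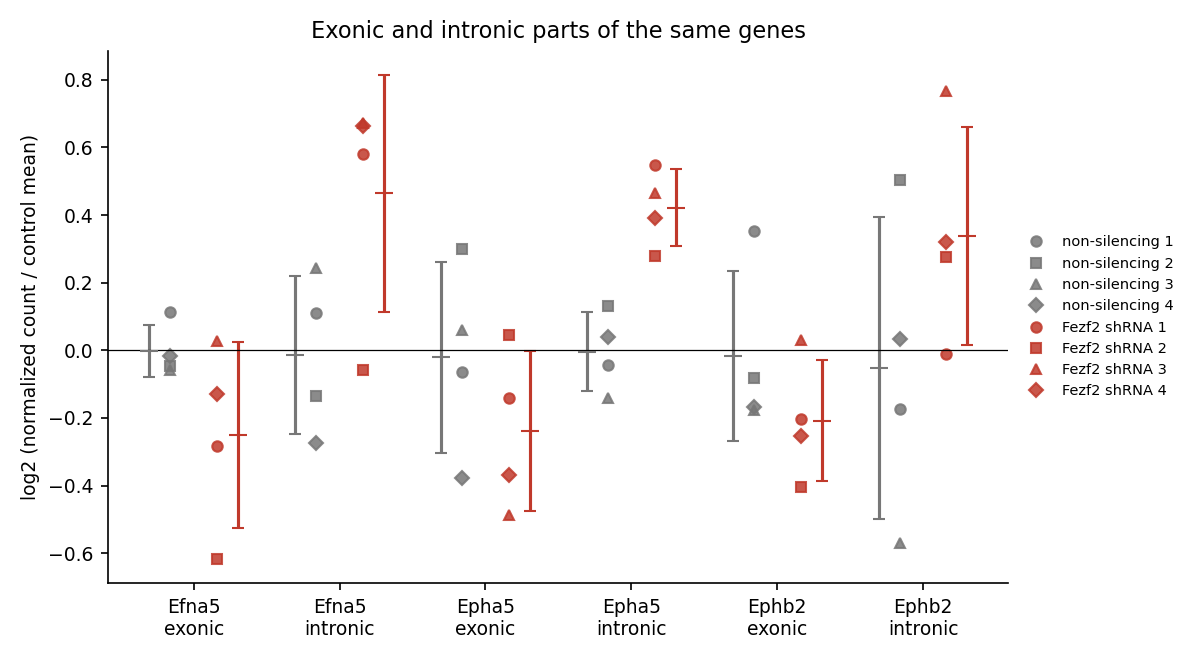
Log2 of each library's normalized count over the control mean in the exonic and the intronic part of Efna5, Epha5 and Ephb2. Grey marks are non-silencing shRNA, red marks Fezf2 shRNA, symbols give the replicate and bars mean ± SD of 4 libraries. In the intronic part of Epha5 all red marks lie above all grey marks, and the exonic means with Fezf2 shRNA lie below the control means in all 3 genes.

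Of the other members, Ephb6 had an exonic part of 565 bp with 979 ± 207 normalized counts in the controls and 978 ± 89.6 under Fezf2 shRNA (SD), a log2 fold change of −0.002. The intronic parts of Epha6 (0.35), Epha7 (0.34), Ephb1 (0.07) and Efnb2 (−0.01) did not pass the threshold, with adjusted p from 0.0899 to 0.971. With parts of at least 50 reads admitted, Ephb1 had a balance difference of −0.01 and Epha7 of 0.22, and the groups overlapped in both. Their exonic parts had higher means with Fezf2 shRNA, unlike those of Efna5, Epha5 and Ephb2. The log2 fold changes were 0.09 ± 0.24 for Ephb1 and 0.20 ± 0.25 for Epha7 (SE, adjusted p = 0.938 and 0.826 in edgeR). Among all annotated intervals of the members, 1 passed the threshold, a retained-intron transcript of Epha5 (ENSMUST00000154804, 0.34, adjusted p = 0.0392), where 5.22% of all intervals passed. These intervals share reads with the whole gene and are no separate evidence.

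The whole family has 22 genes, of which 13 passed the filter and 0 were called by edgeR, against 2.09% of all genes tested. At an unadjusted p under 0.05 in edgeR stood 5 of the 13, against 19.6% of all genes. DESeq2 called 4, against 7.55%. The genes tested outside the 10 members were Epha3, Ephb3 and Efna3, and only Epha3 was among those 5 and those 4. Epha3, an ephrin-A receptor spanning 320625 bp, had 914, 1196, 826 and 781 normalized counts in the controls and 1401, 1774, 1126 and 1228 with Fezf2 shRNA. Control 2 alone reached into the Fezf2 shRNA range. The log2 fold change was 0.57 ± 0.16 (SE), with an adjusted p of 0.0935 in edgeR and 0.00777 in DESeq2, and 0.34 ± 0.17 with the length offset (adjusted p = 0.506). Without control 2 it was called at 0.72 (adjusted p = 0.0312). Ephb3 was at −0.004 and Efna3 at −0.13. Of the 9 family genes below the filter, the highest level in any library was 6.64 CPM, for Efnb1. Epha1, at no more than 1.59 CPM, lay lower in every Fezf2 shRNA library (51 to 60 normalized counts) than in every control (65 to 87). Among the 9959 genes tested, all above the filter that Epha1 missed, 4.41% lay below the controls in this way. The share among genes as low as Epha1 was not counted. With a filter of 1 CPM the log2 fold change of Epha1 was −0.46 (adjusted p = 0.259 in edgeR).

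The study's list of genes activated by FEZF2 in developing cortex holds 4 family genes, Ephb1, Ephb6, Epha7 and Efna3. Per the study's text, the developmental genes came from earlier work by others, with microarrays and Fezf2 overexpression. None of the 4 was past the threshold in edgeR or DESeq2, against 2.09% and 7.55% of all genes tested. None was at an unadjusted p under 0.05 in edgeR, against 19.6%. Their log2 fold changes of 0.09, −0.12, 0.25 and −0.13 lay on both sides of 0.

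Downstream of the receptors and ephrins, 34 of 37 signalling genes passed the filter and 2 rose past the threshold, where 1.96% of all genes did so. The means were higher in 17 and lower in 17, and the median log2 fold change was −0.002. Grip1, a PDZ scaffold that binds the tail of ephrin-Bs and AMPA receptors, had 6106, 6365, 6541 and 5593 normalized counts in the controls and 8778, 8391, 9066 and 8487 with Fezf2 shRNA. The groups were far apart. It rose by 0.50 ± 0.06 on the log2 scale (adjusted p = 0.0120), and its interval of 623310 bp is long too. Vav3, a guanine nucleotide exchange factor of small GTPases, rose by 0.45 ± 0.09 (adjusted p = 0.0317), from 788 ± 29.5 to 1075 ± 116 normalized counts (SD). With the length offset neither was called, and 2 of all 9959 genes tested were. Among the next by p were the kinase Fyn (0.21, adjusted p = 0.0970, past the threshold in DESeq2) and the exchange factor Kalrn (0.22, adjusted p = 0.184). None of the 34 was past the threshold downward.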

How the data were processed

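RNA-seq of M1 tissue was deposited as raw counts per Ensembl transcript for 8 libraries, 1 per tissue sample. Per the study's methods, the authors trimmed adapters, mapped paired-end reads from a total RNA kit to mm10 with TopHat2 and counted reads over annotated intervals with BEDTools multiCov. The submitters' processing notes name TopHat2 2.1.1 and bedtools 2.26.0. Introns lie inside these intervals, and use of strand in counting is not given in the sources used here, so reads of antisense genes may be included. A deposited table of the authors' own DESeq2 comparison was not used.

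Of 94647 transcripts, 91320 were found in GENCODE M21. The other 3327, with 1.82% of the counts, were left out. Genes with more than 8 CPM (counts scaled to equal library size) in at least 4 libraries were tested with edgeR 4.0.16 (quasi-likelihood, TMM, Benjamini-Hochberg over all genes tested, R 4.3.3). DESeq2 1.42.0 was an alternative. Normalized counts are counts scaled to a common TMM-adjusted library size. The gene-length offset came from a loess fit (span 0.3) in each library, of its log2 ratio to the mean of all libraries on the log of the gene's span. Exonic parts were at least 80% and intronic parts at most 5% exonic, with a mean of at least 100 reads. Retained-intron transcripts were left out of the exon share. The balance used a pseudocount of 1.

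Totals of 54684016 to 58003814 counts per library put counting error well below the spread between libraries for the members. The p-values measure the spread between these tissue samples, which came from 4 injected mice per treatment per the study's text. The labels do not say which library came from which mouse. Counts were also simulated (9959 genes, 200 changed), with the same biological spread of 11.7% in every gene and no trend with span. On these, edgeR called 84.5% of log2 changes of 0.5 and 100% of those of 1, and 4.15% of its calls were false. These shares do not carry over to the measured counts, where fold changes moved with span, or to members that spread more. The SD with Fezf2 shRNA and in the controls was 21.1% and 14.5% of the mean for Efna5, and 22.2% and 23.5% for Efnb3. The members and lists were chosen with earlier results of these data known. Genes named are the members, Fezf2, the family genes tested, and of the signalling lists those past the threshold and those among the 3 with the next smallest p. Some genes of the lists are not reported here. Epha1 and Efnb1, the oligodendrocyte markers and the genes overlapping Ephb1 were named after their values were seen.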

Additional observations from a re-analysis of the deposited data

Results flagged for a closer look

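In 5 of 50 groups of 4 libraries examined, the highest or lowest library stood apart from the others by Dixon's criterion for 4 values, and chance alone marks about 5% of groups. Control 4 was low in Epha4 (11499 normalized counts) and high in Efnb3 (1114). Control 2 was high in Epha5 (5345). Fezf2 shRNA library 2 was low in the intronic part of Efna5 (6016), and control 1 was high in the exonic part of Ephb2 (163). Control 4 held the lowest value of all 8 libraries in 6 of the 10 members.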

How the results depend on the processing

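No member was past the threshold under the other scalings, filters, the widest interval, the length offset or the replicate block, whereas DESeq2 with and without a prior called 3 members (Epha5, Epha6, Efna5) and 4 family genes. Of all genes, 752 were called by DESeq2, 734 with a prior, 136 with library totals, 84 with a filter of 1 CPM, 103 without a filter, 90 with the replicate block and 2 with the length offset, alone or with the block. Leaving out single libraries gave 0 (without control 1, 1568 genes at an unadjusted p under 0.05) to 368 genes, 0 to 1 members, 0 to 2 family genes and 0 to 2 signalling genes. The signalling count was 3 in DESeq2 with and without a prior (Fyn beside Grip1 and Vav3), 1 under both other filters and the block, and 0 with the offset, alone or with the block. Fezf2 was called by DESeq2 at −0.28 and with a prior at −0.25, and ranged from −0.31 to −0.26 with single libraries left out.

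With the offset, and with offset and block, Epha4 was at −0.073 and −0.079, Ephb1 at −0.186 and −0.181, and Ephb2 at −0.1245 and −0.1243. That correction is built to take away the trend with span. Whether the shared replicate numbers pair the libraries was not settled. Correlations of same-numbered deviations were 0.31, 0.09, −0.13 and 0.17, and only Fezf2 shRNA libraries 1 and 4 correlated best with their own number. Under the block 1 family gene, Epha3, was called. The block raised the SE of Efnb2, Ephb1 and Ephb2 and lowered that of the other members. It fell most in Efnb3, from 0.18 to 0.10 (adjusted p = 0.0630 in edgeR). With single libraries left out, the balance difference was 0.64 to 0.83 for Efna5, 0.54 to 0.78 for Epha5 and 0.41 to 0.78 for Ephb2. The exonic and intronic parts were added after seeing the data. Depth limits exonic parts most, with 96 to 184 normalized counts per library in Epha5 and Ephb2.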
